A study of Mus musculus with 15 samples.

Results

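Aquaporins are membrane channels for water, and some of them also pass glycerol. The 9 aquaporin genes Aqp1, Aqp2, Aqp3, Aqp4, Aqp5, Aqp6, Aqp7, Aqp8 and Aqp11 were followed here. They were chosen by gene symbol and make up 9 of the 47069 genes in the table. Their levels were read in 15 RNA-Seq libraries from C57BL/6 mice, all male and 2 months old, for which the labels name no treatment and no altered gene. Of these libraries, 12 came from single proximal tubules dissected by hand and labelled PTS2, in the sets m1, m2 and m3, each of 4 libraries numbered 1 to 4, and 3 came from whole kidney. The labels do not say what the letter m or the number stands for, nor whether tubules of a set came from 1 animal. All libraries were made from polyadenylated RNA with the same low-input cDNA kit. Levels are given in TPM, a transcript abundance corrected for the length of each gene and for the library's total, so genes can be compared with each other. Sequencing depth cannot be read from TPM and is unknown here, so no counting error is attached to any value.

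In the nephron, water follows solute out of the proximal tubule through AQP1, which sits in both faces of the proximal tubule cell and of the thin descending limb. In the collecting duct, vasopressin moves AQP2 into the apical membrane of principal cells, and AQP3 and AQP4 let the water out through the basolateral membrane. AQP7, in the brush border of the straight proximal tubule, and AQP3 carry glycerol as well as water. AQP11 lies in intracellular membranes of proximal tubule cells, and AQP6 in vesicles of intercalated cells. AQP5 is best known from glands and AQP8 from digestive organs and intracellular membranes.

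Several of the genes lie close together. In the GENCODE M21 annotation of GRCm38, Aqp2 (chr15:99579055-99584547, plus strand), Aqp5 (chr15:99590782-99594829, plus strand) and Aqp6 (chr15:99601400-99605477, plus strand) follow each other with gaps of 6234 and 6570 bases and no annotated gene between them. Aqp7 (chr4:41033074-41048139, minus strand) and Aqp3 (chr4:41092722-41098183, minus strand) are 44582 bases apart, with 1 noncoding gene, Gm25637, between them. Aqp1 lies at chr6:55336432-55348555 on the plus strand, Aqp11 at chr7:97724006-97738289 on the minus strand and Aqp8 at chr7:123462291-123468004 on the plus strand. All of these are protein-coding genes.

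The upstream sequences of Aqp2, Aqp3 and Aqp7 are shown because these 3 genes had the largest differences in level between PTS2 and whole kidney among the aquaporins tested, and because Aqp7 and Aqp3 are neighbours whose levels ran in opposite directions across the tubules. Each is the 250 bases before a transcription start of the gene, from RefSeq (GRCm38.p6), written 5′ to 3′ on the gene's own strand. In Aqp2 (chr15:99578806-99579055) the capitals mark GACGTCA, the reverse complement of TGACGTC, and CTTATCT, the reverse complement of the GATA motif AGATAAG. In Aqp3 (chr4:41098184-41098433) they mark the TATA box motif TATAAA, and in Aqp7 (chr4:41048137-41048386) the GATA motif AGATAAG. The other Aqp7 window, before another start (chr4:41047963-41048212), had no match to these motifs and is not shown.
Aqp2: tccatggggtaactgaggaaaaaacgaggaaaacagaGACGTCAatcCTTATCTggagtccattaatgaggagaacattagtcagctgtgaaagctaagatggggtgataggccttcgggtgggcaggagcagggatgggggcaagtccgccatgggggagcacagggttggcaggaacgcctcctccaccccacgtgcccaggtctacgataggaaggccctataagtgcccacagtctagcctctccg
Aqp3: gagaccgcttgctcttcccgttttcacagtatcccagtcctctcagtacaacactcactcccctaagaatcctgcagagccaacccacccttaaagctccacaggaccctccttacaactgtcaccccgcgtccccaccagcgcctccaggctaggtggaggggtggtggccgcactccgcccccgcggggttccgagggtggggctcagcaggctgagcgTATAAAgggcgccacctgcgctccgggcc
Aqp7: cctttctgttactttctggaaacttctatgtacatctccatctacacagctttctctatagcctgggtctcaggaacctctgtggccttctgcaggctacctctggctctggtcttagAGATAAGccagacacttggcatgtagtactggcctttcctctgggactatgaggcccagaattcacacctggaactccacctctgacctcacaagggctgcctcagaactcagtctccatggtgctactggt
Of the 9 aquaporins, 8 had a RefSeq promoter entry, with 9 windows in all. Both strands of 32851 windows were searched, and TGACGTC, which is contained in the full cAMP response element TGACGTCA, was present in 2.78% of them, AGATAAG in 2.74% and TATAAA in 12.4%. The full TGACGTCA was present in 1.55% of windows and in none of the aquaporin windows, and the STAT motif TTCNNNGAA, in 7.02% of windows, was likewise in none of them. The Aqp2 matches began 213 and 203 bases before the start, the Aqp7 match 132 bases and the Aqp3 match 29 bases before it. These matches describe the letters in the windows and are not evidence of binding.

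The tubules carried the label of the S2 segment, the middle of the 3 proximal segments. The S1 markers Slc5a2, Slc5a12 and Gatm summed to 2.17 to 9.05 TPM in the tubules, 0.216% of the whole kidney mean. The S2 markers Slc22a6 and Slc22a8, organic anion transporters, summed to 368 to 1149 TPM, 86.2% of the kidney mean, but Slc22a6 was at 120% of its kidney mean and Slc22a8 at 25.0%, with no overlap with kidney for Slc22a8. The S3 markers Slc7a13, Slc22a7 and Slc5a10 summed to 2250 to 4110 TPM, 268% of the kidney mean, and this sum was above the kidney libraries in every tubule. The libraries are therefore called here PTS2 by their label only. Principal cell markers (Avpr2, Scnn1b, Scnn1g, Fxyd4 and Hsd11b2) summed to 1.45 to 9.63 TPM in the tubules against 346 ± 15.6 TPM (SD, n = 3) in kidney, and intercalated cell markers to at most 0.32 TPM against 133 TPM. Thick ascending limb markers summed to 1408 TPM in m3 replicate 3, 54.97 TPM in m1 replicate 4 and 44.34 TPM in m2 replicate 2. Their median over the tubules was 10.3 TPM. Between 10983 and 11511 genes reached 1 TPM in a tubule, and 13236 to 13328 in a kidney library. In whole kidney, fewer cells of a type and less RNA per cell cannot be told apart.

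The makeup of the aquaporin transcripts differed between tubules and kidney. Summed over the 9 genes, the tubules held 518.5 ± 90.2 TPM (SD, n = 12) and the kidney libraries 1065 ± 161 TPM (SD, n = 3), and the highest tubule, at 646.9 TPM, was below the lowest kidney library, at 926 TPM. In PTS2 tubules, Aqp1 made up 68.1 ± 4.94% of this sum, Aqp11 17.6 ± 4.36%, Aqp7 7.62 ± 1.69%, Aqp3 3.77 ± 2.17% and Aqp4 2.48 ± 1.70% (SD, n = 12 for each). In whole kidney, Aqp2 made up 43.1 ± 5.10%, Aqp1 34.0 ± 2.69%, Aqp3 13.2 ± 1.04% and Aqp11 6.31 ± 1.06% (SD, n = 3 for each). Aqp1 was thus the leading aquaporin transcript in each of the 12 tubules, and Aqp2 in each of the 3 kidney libraries.

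**Figure D1:**
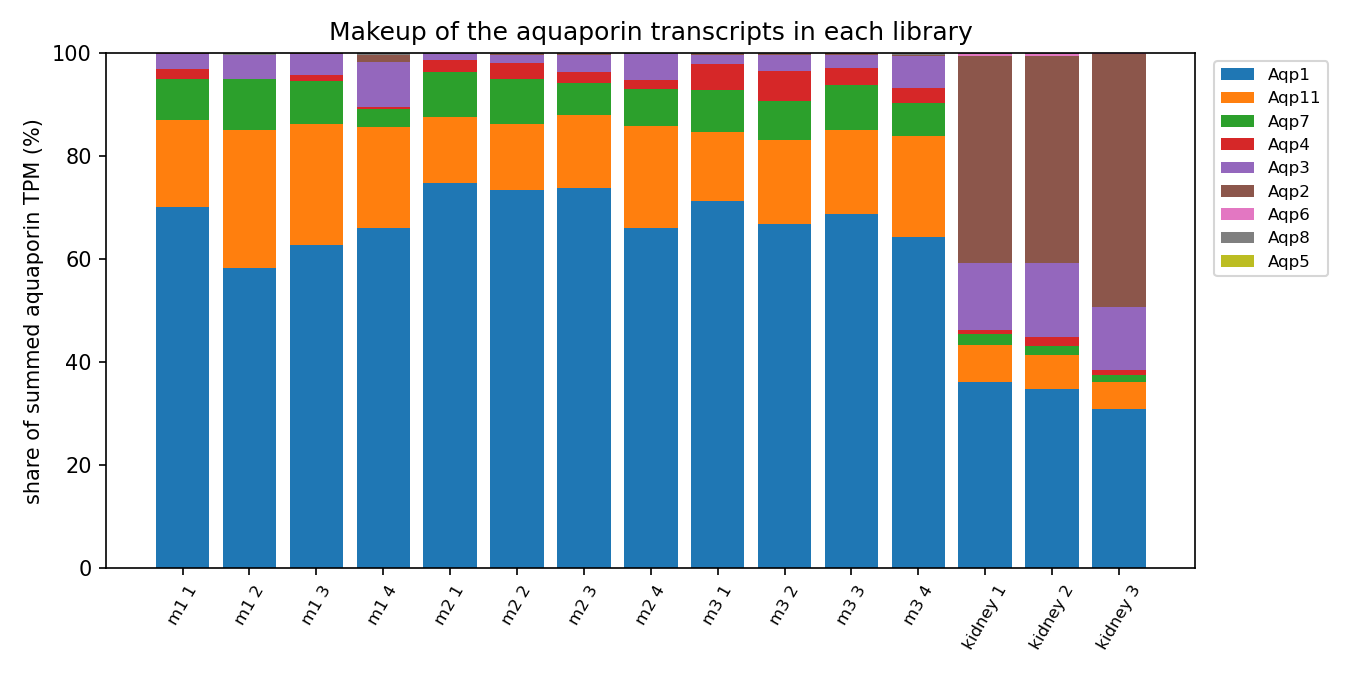
Each bar is 1 library, and its segments show each aquaporin's share (%) of the summed TPM of the 9 aquaporins, for PTS2 sets m1, m2 and m3 (numbers 1 to 4) and whole kidney (1 to 3). Aqp1 fills most of each tubule bar (mean 68.1%), whereas Aqp2 takes 43.1% of the kidney bars on average and 0.246% of the tubule bars.

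By mean level the order in PTS2 was Aqp1, Aqp11, Aqp7, Aqp3, Aqp4, Aqp2, Aqp8, Aqp6 and Aqp5. The ranges of Aqp1, Aqp11 and Aqp7 did not overlap over the 12 tubules. Aqp7 exceeded Aqp3 in 10 of 12 tubules, and Aqp3 exceeded Aqp4 in 7 of 12, so these neighbours were not separated by their spread. Aqp2 exceeded Aqp8 in 6 of 12 tubules. In whole kidney the order was Aqp2, Aqp1, Aqp3, Aqp11, Aqp7, Aqp4, Aqp6, Aqp8 and Aqp5, and only the steps from Aqp2 to Aqp1, from Aqp7 to Aqp4 and from Aqp8 to Aqp5 had overlapping ranges.

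**Figure D2:**
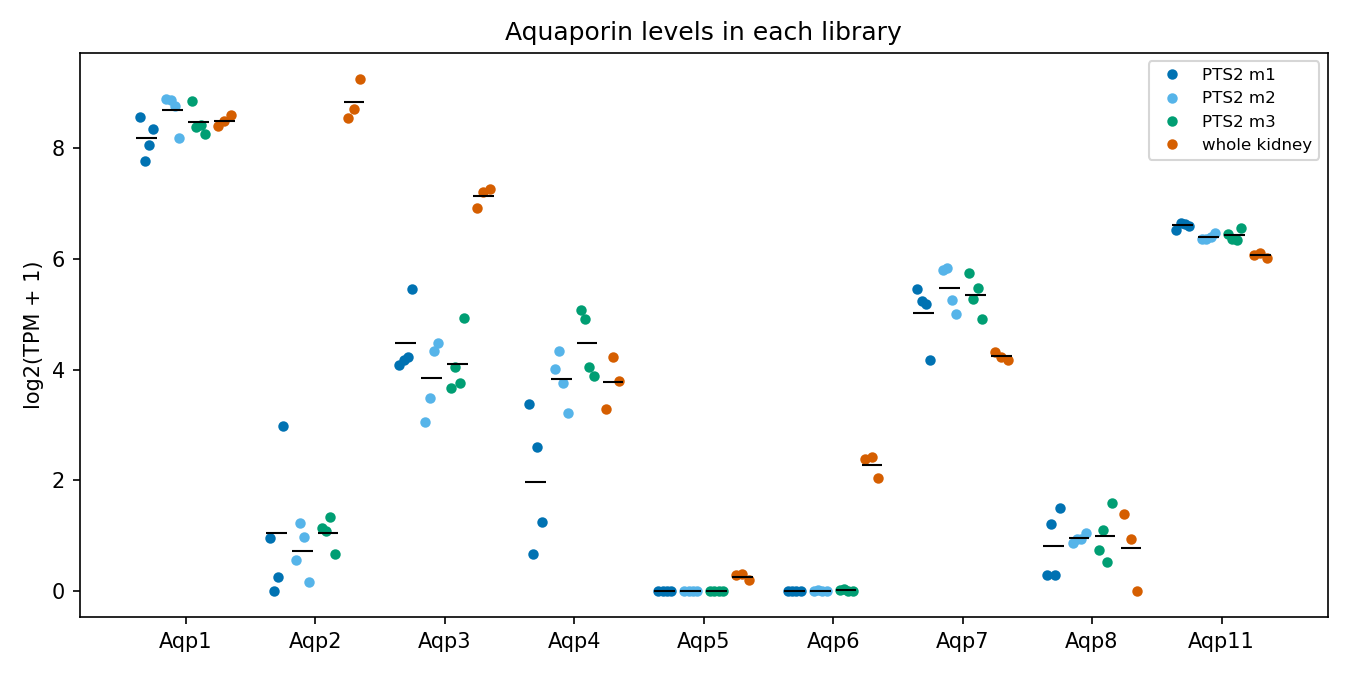
Each point is 1 library and shows log2(TPM + 1) for the 9 aquaporins, coloured by PTS2 set or whole kidney, with the group mean as a line. Aqp2 and Aqp3 lie higher in all kidney libraries than in any tubule, Aqp11 lies lower, and Aqp5 and Aqp6 lie at or near 0 in the tubules.

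PTS2 tubules were then compared with whole kidney by limma, on log2(TPM + 1), over 12039 genes whose mean reached 1 TPM. Differences on this scale understate the change of genes with low levels. Of the 9 aquaporins, 6 passed this filter, and 4 of these had an adjusted p under 0.05: Aqp7 and Aqp11 were higher in PTS2, and Aqp2 and Aqp3 were lower. Over all genes tested, 51.2% passed, 9.68% as higher and 41.5% as lower. The median log2 difference was -0.20 over the 6 aquaporins and -0.27 over all genes tested. That median depended on the scaling, being -0.00 after median-of-ratios rescaling and 0.16 after quantile normalization, with 2828 of 5688 and 4164 of 6437 called genes higher in PTS2 against 1165 of 6161 as deposited. The 4 called aquaporins kept their direction and their call under both.

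Aqp1, the main water channel of the proximal tubule, was at 375, 217, 265 and 324 TPM in set m1. In m2 it was at 474, 468, 432 and 289 TPM, and in m3 at 462, 334, 338 and 303 TPM. In whole kidney it was at 335, 358 and 385 TPM. The kidney libraries lay inside the range of the tubules, and the tubules varied more, with means of 357 ± 85.4 TPM (SD, n = 12) and 359 ± 25.0 TPM (SD, n = 3). The log2 difference was -0.05 ± 0.19 (SE), with limma's adjusted p = 0.852, and its sign turned under median-of-ratios rescaling (0.24, adjusted p = 0.276). Aqp1 was 469th by mean level among all genes in PTS2 and 429th in kidney. The other nephron segment rich in AQP1 is the thin descending limb. The genes listed here for that segment, Slc14a2, Bst1 and Fst, summed to 27.5 TPM in kidney and to at most 0.46 TPM in the tubules. Of the kidney sum, 20.1 TPM was Slc14a2, and whether it came from the thin descending limb alone was not tested. The 4 endothelial markers summed to 123 TPM in kidney and to 8.87 to 32.7 TPM in the tubules. The part of either cell type in the Aqp1 level of either group was not tested.

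Cldn2, which forms the water-permeable pore between proximal tubule cells, also missed the threshold. Tubules held 351 ± 43.7 TPM (SD, n = 12) of it and kidney libraries 322 ± 1.87 TPM (SD, n = 3). The log2 difference was 0.11 (adjusted p = 0.424).

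Aqp11, the intracellular aquaporin whose loss in mice leads to proximal tubule vacuoles and cystic kidneys, was the steadiest member. The m1 tubules had 91.0, 99.5, 98.5 and 95.9 TPM, the m2 tubules 80.7, 81.1, 83.3 and 86.8 TPM, and the m3 tubules 86.4, 81.3, 80.0 and 92.5 TPM. In whole kidney it was at 66.4, 68.0 and 63.7 TPM. Every tubule was above every kidney library, which held for 5.76% of all genes tested in this direction. The means were 88.1 ± 7.19 TPM (SD, n = 12) and 66.0 ± 2.21 TPM (SD, n = 3), and the log2 difference was 0.41 ± 0.07 (SE; adjusted p = 2.34e-04). Relative to the median of all genes the difference was 0.67.

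Aqp7, the aquaglyceroporin of the straight proximal tubule, was at 43.0, 36.8, 35.4 and 17.0 TPM in m1. It was at 54.6, 56.1, 37.0 and 31.1 TPM in m2 and at 52.9, 37.8, 43.3 and 29.2 TPM in m3. Whole kidney libraries had 18.8, 17.7 and 17.1 TPM. All tubules but m1 replicate 4 were above all 3 kidney libraries, and that tubule was just below the lowest of them. The mean was 39.5 ± 11.4 TPM (SD, n = 12) in PTS2, 221% of the kidney mean of 17.9 ± 0.889 TPM (SD, n = 3). The log2 difference was 1.04 ± 0.26 (SE; adjusted p = 0.00281). The S3 markers Slc7a13, Slc22a7 and Slc5a10 were also higher in PTS2, at 233%, 366% and 225% of their kidney means, and their part in the Aqp7 difference was not tested.

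Aqp3, the aquaglyceroporin of the basolateral membrane in the collecting duct, was lower in PTS2 but not near 0. The m1 tubules had 15.9, 17.2, 17.7 and 43.1 TPM, the m2 tubules 7.31, 10.2, 19.3 and 21.4 TPM, and the m3 tubules 11.6, 15.5, 12.6 and 29.7 TPM. In whole kidney it was at 120.4, 147 and 152 TPM. No tubule reached the lowest kidney library, a separation that 32.0% of all genes tested showed in this direction. PTS2 held 18.4 ± 9.70 TPM (SD, n = 12), 13.2% of the kidney mean of 139.8 ± 17.0 TPM (SD, n = 3), and the log2 difference was -2.99 ± 0.36 (SE; adjusted p = 2.61e-06). The summed principal cell markers in the tubules were 1.32% of their kidney mean and Aqp2 was 0.277%, both smaller shares than that of Aqp3. Most of that sum was Fxyd4, at 2.56% of its kidney mean, and the 4 other markers together were at 0.260%, a split made after their values were seen.

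Aqp2, the vasopressin-regulated channel of principal cells, was the member with the largest difference among those tested. In kidney it was at 371, 414 and 608 TPM. In the tubules it ranged from 0 in m1 replicate 2 to 6.90 TPM in m1 replicate 4, with a median of 0.965 TPM. No other tubule exceeded 1.53 TPM, and none overlapped with kidney, a separation that 32.0% of all genes tested showed in this direction. The means were 1.28 ± 1.84 TPM (SD, n = 12) and 464 ± 126 TPM (SD, n = 3), with a log2 difference of -7.88 ± 0.44 (SE; adjusted p = 2.24e-10). The ratio of Aqp2 to Aqp3 was 2.81 to 4.00 in kidney libraries and 0 to 0.160 in tubules. In m1 replicate 4, Fxyd4 was at 8.24 TPM and the 4 other principal cell markers summed to 0.92 TPM. Over all tubules, Fxyd4 ran from 1.10 to 9.63 TPM and the sum of these 4 from 0 to 2.18 TPM. The highest Fxyd4 was in m1 replicate 2, where Aqp2 and the 4 other markers were at 0.

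Aqp4 did not differ detectably between tubules and kidney, and its levels in the tubules were the most scattered of the 5 leading aquaporins. This water channel is basolateral in principal cells and has also been described in the straight proximal tubule of the mouse. The m1 tubules had 9.46, 0.59, 5.05 and 1.37 TPM, the m2 tubules 15.2, 19.2, 12.5 and 8.26 TPM, and the m3 tubules 32.6, 29.2, 15.5 and 13.9 TPM. In whole kidney it was at 8.81, 17.8 and 12.9 TPM, inside the range of the tubules. The log2 difference from kidney was -0.35 ± 0.70 (SE; adjusted p = 0.698), and it turned to 0.20 after quantile normalization (adjusted p = 0.812). An annotated antisense gene overlaps Aqp4 and had no entry in the table, and whether the counting used strand is not given in the sources used here.

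Aqp5, Aqp6 and Aqp8 had mean levels under 1 TPM over the 15 libraries and were outside the filtered comparison. Aqp6 was at 4.23, 4.38 and 3.12 TPM in kidney, and in the tubules it was listed at 0 in 9 of 12 and reached at most 0.03 TPM. Aqp5 was at 0.22, 0.24 and 0.15 TPM in kidney and was listed at 0 in all 12 tubules. Neither gene's tubules overlapped with kidney. In the limma fit without a filter both were lower in PTS2, with adjusted p = 6.55e-13 for Aqp6 and 4.51e-09 for Aqp5. Tubule values at or near 0 had almost no spread, and Aqp5, at 0 in every tubule, could only come out lower. These p-values therefore add nothing to the listed levels. In that fit 26.9% of 30969 genes were called lower. Aqp2, their neighbour on chromosome 15, also had every tubule below every kidney library, as had 32.0% of all genes tested. Because Aqp5 and Aqp6 were at or near 0 in the tubules, their separation says nothing about the locus. Mean levels in kidney ran from 464 TPM for Aqp2 to 0.203 TPM for Aqp5. Aqp8 was at 0.22 to 2.00 TPM in the tubules, with a median of 0.925 TPM, and at 1.62, 0.92 and 0 TPM in kidney. Its groups overlapped, and the difference without a filter was 0.15 ± 0.30 (SE; adjusted p = 0.765). Of the other aquaporin genes in the table, Aqp12 was listed at 0 in all libraries, Mip at 0.01 TPM in 1 kidney library, and Aqp9, a glycerol channel of liver, at 0.29, 0.01 and 0.92 TPM in 3 tubules and at 0 elsewhere.

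The genes that link vasopressin to AQP2 were described next. Of 10 listed genes, 8 were tested, 5 were lower in PTS2 and none was higher, where 41.5% of all genes tested were lower and 9.68% higher. The count describes the list and supports nothing about it, because Avpr2, Gata2, Gata3 and Adcy6 had means under 1 TPM in PTS2 and passed the filter through their kidney levels. Avpr2, the vasopressin V2 receptor, was at 0.222 ± 0.462 TPM in tubules (SD, n = 12) and at 29.3 ± 2.34 TPM in kidney (SD, n = 3; log2 difference -4.69). Gata2 and Gata3, transcription factors that act on Aqp2 in the collecting duct, were at 3.29% and 0.612% of their kidney means. Adcy6, an adenylyl cyclase that makes cAMP after receptor activation, was at 18.9% of its kidney mean, and Creb1, a cAMP-responsive transcription factor, at 54.5%. Gnas, the stimulatory G protein subunit, was at 94.6% and did not pass the test (-0.08, adjusted p = 0.283). Of the genes named so far, the receptor and the GATA factors had the smallest shares of their kidney levels, and Gnas the largest. Of the others on the list, Elf5 was at 1.70%, below Gata2, Adcy3 at 13.3%, Prkaca at 87.7% and Prkacb at 86.7%.

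Among 8 tested genes of glycerol handling, 1 was higher in PTS2 and 2 were lower, where 9.68% of all genes tested were higher and 41.5% lower. Their median log2 difference was 0.18, against -0.27 over all genes tested. Gk, glycerol kinase, which turns the glycerol that AQP7 and AQP3 pass into glycerol 3-phosphate, was at 547 ± 105 TPM in tubules (SD, n = 12) and at 425 ± 51.0 TPM in kidney (SD, n = 3), and the difference missed the threshold (0.34, adjusted p = 0.0966). Lpl, lipoprotein lipase, was higher (0.70, adjusted p = 3.28e-04), while Lipe, hormone-sensitive lipase, and Gpd1l were lower, at 46.6% and 70.5% of their kidney means. Of the 5 genes of the tonicity response, which is strongest in the medulla, 4 were tested and 3 were lower in PTS2, where 41.5% of all genes tested were. These were Slc5a3, a myo-inositol transporter (7.81% of the kidney mean), Nfat5, the tonicity-responsive transcription factor (26.5%), and Akr1b3, aldose reductase (58.7%).

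The sets m1, m2 and m3 were compared among the 12 tubules, over 11300 genes. Aqp4 was the 1 aquaporin of 6 tested that differed by limma's F test (adjusted p = 0.0317), where 3.02% of all genes did. Its mean was lowest in m1, at 4.12 ± 4.06 TPM, with m2 at 13.8 ± 4.58 TPM and m3 at 22.8 ± 9.48 TPM (SD, n = 4 for each). The highest m1 tubule, at 9.46 TPM, was below the lowest m3 tubule, at 13.9 TPM, and m2 overlapped with both. Between m3 and m1 the log2 difference was 2.51 ± 0.50 (SE; adjusted p = 0.0177), in a contrast that called 3.17% of all genes, 2.23% as higher and 0.938% as lower in m3. For m2 against m1 it was 1.85 ± 0.50 (adjusted p = 0.162), which passed without m1 replicate 1 (2.32, adjusted p = 0.0267). For m3 against m2 it was 0.65 ± 0.50 (adjusted p = 0.758). With all 12 tubules and no block for the replicate number, no aquaporin was called in either of these contrasts. The first called 0.54% of all genes, and the second 1.97%, 1.17% as higher and 0.805% as lower in m3. With such a block, Aqp4 passed for m2 against m1, as given further below. The m3 against m1 call was lost without m1 replicate 4 (adjusted p = 0.0561), m3 replicate 1 (0.0682) or m3 replicate 2 (0.0549), and also without m3 replicate 3 and m1 replicate 4 together (2.41, adjusted p = 0.0916). Those last 2 tubules had the highest sums of thick ascending limb markers, though m1 replicate 4, at 54.97 TPM, was close to m2 replicate 2, at 44.34 TPM. The F test's call was lost when any of 9 of the 12 tubules was left out, and held without m1 replicate 1, m2 replicate 4 or m3 replicate 4.

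**Figure D3:**
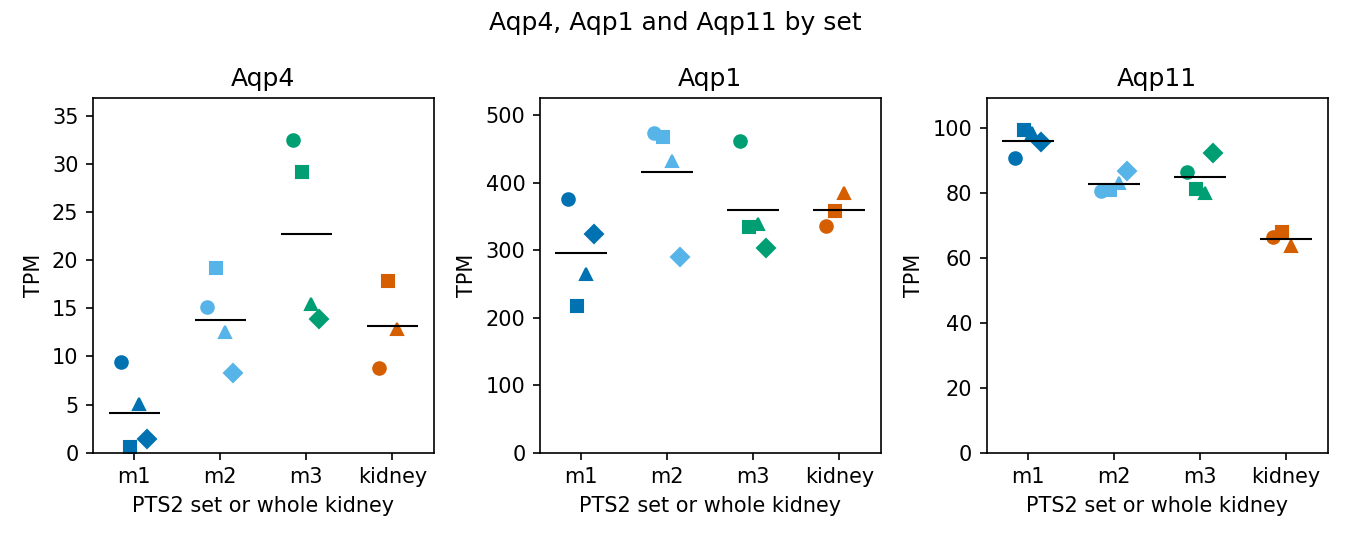
TPM of Aqp4, Aqp1 and Aqp11 in each library of PTS2 sets m1, m2 and m3 and of whole kidney, with circles, squares, triangles and diamonds for numbers 1, 2, 3 and 4 and a line at each group's mean. For Aqp4, all m1 points (at most 9.46 TPM) lie below all m3 points (at least 13.9 TPM), whereas the sets overlap for Aqp1.

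The other aquaporins did not pass the test among sets. For Aqp11 the m1 mean was 96.2 ± 3.79 TPM, the m2 mean 83.0 ± 2.80 TPM and the m3 mean 85.1 ± 5.67 TPM (SD, n = 4 for each; adjusted p = 0.182). The corresponding Aqp1 means were 296 ± 68.8, 416 ± 86.3 and 359 ± 70.2 TPM (adjusted p = 0.351). Aqp3 and Aqp7 had adjusted p = 0.607 and 0.594. Aqp2 was tested in these 12 tubules only because of the 6.90 TPM in m1 replicate 4, and without that library its mean was under the filter. Of the 8 glycerol genes tested, only Mgll, monoacylglycerol lipase, was called between m3 and m1. It was lower in m3 (-1.19, adjusted p = 0.0228), where 0.938% of all genes tested were.

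The tubules also differed by the number in their labels. In each set, number 4 had the highest Aqp3 and the lowest Aqp7. Aqp3 was at 15.9, 7.31 and 11.6 TPM in the tubules numbered 1 and at 43.1, 21.4 and 29.7 TPM in those numbered 4. Aqp7 was at 43.0, 54.6 and 52.9 TPM in number 1 and at 17.0, 31.1 and 29.2 TPM in number 4. With set as a term in the limma fit, the log2 difference of number 4 from number 1 was 1.36 ± 0.22 for Aqp3 (SE; adjusted p = 0.00543) and -0.97 ± 0.16 for Aqp7 (SE; adjusted p = 0.00552). Of all genes tested, 4.76% were called, 1.69% as higher and 3.07% as lower in number 4. Over the 4 numbers, Aqp3 and Aqp7 were the 2 aquaporins of 6 called (adjusted p = 0.0270 and 0.0279), where 2.71% of genes were. This contrast had been noticed in earlier results of the same libraries and is not independent support.

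The number 4 against number 1 calls of both genes held when any 1 tubule was left out, with adjusted p up to 0.0379 for Aqp3 and 0.0349 for Aqp7. They were lost with no filter on low genes (0.0545 and 0.0533) and with no set term (0.0720 and 0.0752). The calls over the 4 numbers were also lost without any 1 of the tubules numbered 1 or 4. Aqp4 (-1.37, adjusted p = 0.165), Aqp1 (-0.51, adjusted p = 0.158) and Aqp11 (0.09, adjusted p = 0.624) did not pass, though Aqp1 passed without m1 replicate 4 (-0.74, adjusted p = 0.0364) and Aqp4 without m1 replicate 2 (adjusted p = 0.00874).

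Markers of the proximal segments moved with these genes. The summed S2 markers were highest in number 4 of every set, at 1149, 892 and 1024 TPM, against 704, 368 and 370 TPM in number 1. The summed S3 markers were lowest in number 4 of every set, at 2250, 2914 and 2970 TPM, against 3914, 4110 and 3921 TPM in number 1. In the same contrast both S2 markers were called higher and all 3 S3 markers lower in number 4, where 1.69% of all genes tested were higher and 3.07% lower. Among principal cell markers, Fxyd4 was at 3.63, 1.10 and 2.57 TPM in number 1 and at 8.24, 5.91 and 3.21 TPM in number 4, and it did not pass the test (0.98, adjusted p = 0.0824). The 4 others summed to 0.57, 0.35 and 0.40 TPM in number 1 and to 0.92, 0.09 and 0.17 TPM in number 4, higher in m1 and lower in m2 and m3. The part of these markers in the Aqp3 and Aqp7 differences was not tested.

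Across the 12 tubules, Aqp3 and Aqp7 ran in opposite directions. Pearson's r of log2(TPM + 1) was -0.956 and Spearman's rho -0.965. Without m1 replicate 4 and m2 replicate 1, the tubules farthest from the median of Aqp3, r was -0.943, and for deviations from the set means it was -0.948. These values are a description with no p, because the pair was picked with its values known, and tubules of a set may share an animal. The ratio of Aqp7 to Aqp3 ran from 0.394 in m1 replicate 4 to 7.47 in m2 replicate 1, whereas in kidney it was 0.112 to 0.156. The sum of both genes stayed between 52.5 and 66.3 TPM in all tubules.

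**Figure D4:**
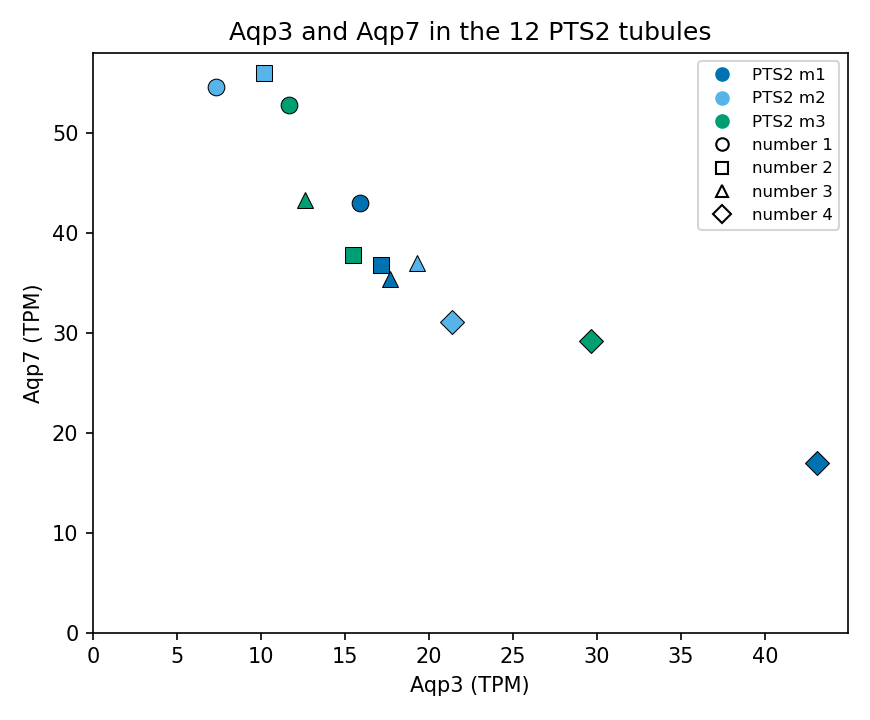
Aqp7 (TPM) against Aqp3 (TPM) in the 12 PTS2 tubules, coloured by set, with the marker shape giving the number in the label. The points fall from upper left to lower right (r = -0.956 on the log2 scale), and the diamonds of number 4 lie lowest and farthest right within each set.

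With Aqp3, the S2 markers Slc22a6 and Slc22a8 had r of 0.904 and 0.894, and the S3 markers Slc7a13, Slc22a7 and Slc5a10 had -0.792, -0.840 and -0.786. For Aqp7 the signs were opposite, at -0.851 and -0.869 for the S2 markers and 0.831, 0.856 and 0.828 for the S3 markers. Aqp4 had r of -0.628 and -0.505 with the S2 markers and of 0.860, 0.280 and 0.500 with the S3 markers in the same order. These correlations were taken over the same 12 libraries, with totals shared by the TPM scaling.

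The 3 genes most like each aquaporin were taken by Pearson's r of log2(TPM + 1) over the 12 tubules, among 11296 genes. For Aqp3 they included Nat8f5 (0.948) and Cyp2e1 (0.939), and for Aqp7 they were Methig1 (0.967), Tmem246 (0.966) and Snhg11 (0.965). For Aqp4 they were Kif20b (0.956), Gstm7 (0.955) and Snw1 (0.949), and for Aqp11 Plekhm2 (0.937), Tmem37 (0.937) and Gmpr (0.924). For Aqp1 they were Chst3 (0.935), Ormdl3 (0.928) and Zfp646 (0.917). Aqp2, which is near 0 in most tubules, had lower values, led by 9130017K11Rik (0.871). With so many genes and 12 libraries, values of this size are a ranking only.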

How the data were processed

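RNA-Seq of 12 PTS2 tubules and 3 whole kidneys was deposited by the authors as 1 table of TPM values per gene. The submitters' processing notes name STAR 2.5.1b, RSEM 1.2.31 and the build GRCm38.p5, and the annotation release is not given in the sources used here. That the unit is TPM was read from the values: each column sums to between 999999 and 1000001. Of the table, 4 summary columns with means and errors by group stayed out.

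The description label gave each library's group. Since nothing says that the libraries of a group came from separate animals, p-values measure only the spread between these libraries. Differences were tested with limma 3.58.1 (R 4.3.3; lmFit and eBayes with trend) on log2(TPM + 1), for genes averaging 1 TPM or more, two-sided, with Benjamini-Hochberg adjustment over all genes tested and a threshold of 0.05. For PTS2 against kidney, the set was a correlated block (estimated correlation 0.0669). Number 4 against number 1 was fitted with set as a term. Tested on simulated data with 200 genes changed by a log2 difference of 1, these fits recovered 165 of them for PTS2 against kidney (12039 genes), 156 for m3 against m1 and 125 for number 4 against number 1 (11300 genes each). False calls were 9, 5 and 2 in the same order. These counts hold for the simulated data only and do not give the power of the fits to the libraries. Summaries used Python 3.11.15, numpy 2.4.6, pandas 2.3.3 and scipy 1.17.1, with figures by matplotlib 3.10.9.

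The aquaporins, gene lists, motifs and comparisons were chosen with earlier results of these data known. The named genes are the 9 aquaporins, the other aquaporin genes in the table, the genes of the marker, vasopressin, glycerol and tonicity lists, Cldn2, and the 3 genes most correlated with each aquaporin. A gene that met this rule is not reported here. Alternatives were a pseudocount of 0.1, no filter, a mean of at least 10 TPM, 2 other scalings, no set term, one mean per set, the within-set correlation left out, each library left out, and a block for the replicate number. One alternative, without the 2 tubules richest in thick ascending limb genes, was added after seeing the data.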

Additional observations from a re-analysis of the deposited data

Results flagged for a closer look

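In groups of 4 tubules, the highest or lowest library was compared with the rest of its set by Dixon's criterion for each aquaporin, in 23 tests, of which chance would flag 1.15. It was met 3 times. In m1 replicate 4, Aqp2 was at 6.90 TPM, where the next tubule of the set had 0.95 TPM, and Aqp3 was at 43.1 TPM, where the next had 17.7 TPM. In m2 replicate 2, Aqp6 was at 0.01 TPM, which is the rounding step of the table, and the other tubules of the set were listed at 0. With the others at 0, any value above 0 would have met the criterion, so this flag cannot be set against the chance figure.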

How the results depend on the processing

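Depth is unknown, so how far it limits the low values of Aqp2, Aqp5, Aqp6 and Aqp8 cannot be stated. The cause of each change below was not tested. The 4 aquaporins called for PTS2 against kidney were called under every alternative run, as 4 of 4 without each library. The count of all genes called there was 9399 with no filter, 3113 with a mean of at least 10 TPM and 4761 to 6712 without 1 library. Among sets it was 196 with no filter, 175 without the 2 tubules richest in thick ascending limb genes and 197 to 563 without 1 library. The aquaporin count among sets was 0 under the first 2 of these and 0 to 1 without 1 library. Among numbers, genes called were 0 with no filter, 0 with no set term, 64 without the 2 tubules and 75 to 507 without 1 library, and aquaporins 0, 0, 0 and 0 to 3. For m2 against m1 there were 105 genes after median-of-ratios rescaling, 107 after quantile normalization, 36 without the 2 tubules and 37 to 135 without 1 library. For m3 against m1 there were 178 with no filter, 132 without the 2 tubules and 160 to 771 without 1 library. For m3 against m2 there were 111, 141 and 119 to 313. For number 4 against number 1 there were 175 with no filter, 67 with no set term, 214 without the 2 tubules and 249 to 757 without 1 library.

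Signs turned only for differences that had not been called. For PTS2 against kidney, Aqp1 was 0.24 after median-of-ratios rescaling and -0.097 to 0.011 without 1 library, and Aqp4 was 0.20 after quantile normalization. For m3 against m1, Aqp2 was -0.019 after median-of-ratios rescaling, -0.049 after quantile normalization and -0.35 to 0.13 without 1 library, and Aqp3 was 0.052 without the 2 tubules. For m3 against m2 without 1 library, Aqp3 was -0.020 to 0.47, Aqp7 -0.27 to 0.028 and Aqp11 -0.0068 to 0.062, and Aqp11 was -0.017 after median-of-ratios rescaling.

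Same-numbered tubules of different sets had a mean correlation of deviations of 0.143 (0.0254 to 0.273), over 0.1 in 7 of 12 pairs, against -0.0481 for 36 other pairs, and 9 of 12 libraries correlated best with their own number, and since pairing required every pair to be over 0.1, the main values use no block. With this replicate block, 888 genes were called among sets, 307 for m2 against m1, 838 for m3 against m1 and 416 for m3 against m2. Under the block Aqp4 passed for m2 against m1 (1.85, adjusted p = 0.0453), and Aqp1 differed from kidney by 0.015.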

Other observations

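Of the 8 glycerol and 4 tonicity genes tested, 2 were called in a contrast between 2 sets. Over all genes tested, 0.54% were called for m2 against m1, 3.17% for m3 against m1 and 1.97% for m3 against m2. Mgll, the lipase that frees glycerol from monoacylglycerol, was at 77.3, 85.7, 44.6 and 31.1 TPM in the m1 tubules and at 89.7, 72.6, 67.9 and 68.2 TPM in the m2 tubules. In the m3 tubules it was at 21.7, 23.9, 26.7 and 22.6 TPM. Each m3 tubule was below each tubule of the other sets and below each kidney library, which had 38.9, 35.7 and 42.5 TPM. Akr1b3, aldose reductase, was at 40.7, 46.5, 53.3 and 52.6 TPM in the m2 tubules and at 59.6, 71.1, 66.5 and 84.0 TPM in the m3 tubules. The log2 difference of m3 from m2 was 0.53 (limma's adjusted p = 0.0374). Akr1b3 was also called higher in number 4 than in number 1 (0.40, adjusted p = 0.0190), the contrast in which Aqp3 was higher and Aqp7 lower. That contrast called 4.76% of all genes tested, 1.69% as higher and 3.07% as lower in number 4.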
